A study of Mus musculus with 6 samples.

Results

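Bone marrow RNA of 6 littermate mice was examined for the 8 genes *Cebpa*, *Cebpb*, *Cebpd*, *Cebpe*, *Cebpg*, *Gfi1*, *Trib1* and *Trib2*, which were chosen by name as factors of granulocyte and monocyte differentiation. These genes and the gene lists used below were chosen with earlier results of these data known. Each symbol matched 1 of the 39179 Ensembl identifiers in the count files, and all 8 were among the 15980 genes with enough counts to be tested. The 3 *MxCDX2* mice (*RsCDX2::Mx1Cre*) carried the human *CDX2* coding sequence at *Rosa26* behind a stop sequence flanked by loxP sites, together with Cre recombinase under the interferon-inducible *Mx1* promoter, which is not specific to 1 blood lineage. The 3 control mice each had another genotype, namely *RsCDX2* without Cre (control 1), *Mx1Cre* without the knockin (control 2) and wild type (control 3), so no control genotype was replicated. All 6 mice were 3 months old and were injected 3 times into the peritoneum with poly(I:C), an inducer of interferon, at 10 µg/g, and RNA was prepared 6 weeks later. The sample numbers of the labels name the mice below.

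Between 38646101 and 49899650 reads were counted on genes in each mouse. Mouse *Cdx2*, the gene on which reads of the human transgene could be counted, had 4, 0 and 0 counts in controls 1, 2 and 3, and 152, 155 and 183 counts in *MxCDX2* mice 1, 2 and 3. The wild-type control stood apart from the other controls, with 261961 summed normalized counts of 6 megakaryocyte genes against 21818 in the *Mx1Cre* control. The 8 erythroid genes summed to between 1525124 and 1875699 normalized counts in the controls and to between 45429 and 175553 in the *MxCDX2* mice. For 8 B-cell genes the ranges were 18588 to 47868 and 4046 to 13179, and for 6 genes of mature neutrophils they were 252210 to 344710 and 112208 to 139389. The summed counts of 8 genes common to leukocytes lay between 343223 and 411129 in the controls and between 359924 and 379821 in the *MxCDX2* mice. No marker in these lists was at 0 in every mouse. In bulk bone marrow, a change in the number of cells of a type and a change in RNA per cell cannot be told apart.

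The C/EBP proteins are transcription factors with a basic region that binds DNA and a leucine zipper through which they pair. C/EBPα is required for the formation of granulocyte and monocyte progenitors, C/EBPβ for granulocyte production in emergencies and for some monocytes, and C/EBPε for the late steps of granulocyte maturation. C/EBPδ is known from inflammatory responses, and C/EBPγ lacks an activation domain and acts through its partners, ATF4 among them. GFI1 is a zinc finger repressor that favors granulocytes over monocytes, and it works with the histone demethylase LSD1 and CoREST proteins. TRIB1 and TRIB2 are pseudokinases that bring C/EBPα to the ubiquitin ligase COP1 for degradation, so they act on C/EBPα as a protein, which RNA counts do not measure.

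The C/EBP genes share their basic region, and this common stretch is shown for 4 of them because it is what makes them 1 family. Among all ungapped windows of 60 coding bases that begin at a codon of *Cebpa*, the one below had the most bases in common with the best windows of *Cebpb*, *Cebpe* and *Cebpg* (GENCODE M21, GRCm38). Each sequence runs 5′ to 3′ along its own gene, and capitals mark the 35 positions at which all 4 genes have the same base.
Cebpa: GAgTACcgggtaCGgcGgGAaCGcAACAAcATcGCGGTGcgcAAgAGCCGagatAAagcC
Cebpb: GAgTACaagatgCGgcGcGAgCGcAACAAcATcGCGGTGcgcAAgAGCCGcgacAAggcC
Cebpe: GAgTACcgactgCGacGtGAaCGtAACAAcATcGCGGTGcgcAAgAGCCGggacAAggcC
Cebpg: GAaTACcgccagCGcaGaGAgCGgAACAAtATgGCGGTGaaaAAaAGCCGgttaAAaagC
Within these 60 bases, *Cebpb* and *Cebpe* each had 51 bases in common with *Cebpa*, whereas *Cebpg* had 38. The stretch lay within 1 exon in each of the 4 genes, at chr7:35120271-35120330 (plus strand) in *Cebpa*, chr2:167689691-167689750 (plus) in *Cebpb*, chr14:54710710-54710769 (minus) in *Cebpe* and chr7:35050588-35050647 (minus) in *Cebpg*. It was followed by 55 codons in *Cebpa*, 53 in *Cebpb*, 56 in *Cebpe* and 67 in *Cebpg*, the part of the proteins that holds the leucine zipper. The coding sequences differed more in length, from 150 codons in *Cebpg* to 359 in *Cebpa*.

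Of the 8 genes, 1 passed both thresholds (absolute log2 fold change above 1 and adjusted p-value below 0.05 in edgeR's quasi-likelihood test), which was *Cebpa*. Over all genes tested, 2177 of 15980 (13.6%) passed, 734 of them (4.59%) higher and 1443 (9.03%) lower in *MxCDX2* mice. The counts of the *MxCDX2* mice did not overlap those of the controls in 2 of the 8 genes, *Cebpa* and *Cebpe*, beside 42.1% of all genes tested. The 8 genes had a median log2 fold change of 0.33, against 0.0021 over all genes tested.

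*Cebpa* lies on chromosome 7 from 35119293 to 35121928 on the plus strand, in a single exon (GRCm38). Its normalized counts were 2422, 2471.5 and 2167 in controls 1, 2 and 3 and 6821, 6775 and 9601 in *MxCDX2* mice 1, 2 and 3. The 3 controls were close to each other, the wild type included, and every *MxCDX2* mouse was far above them. The mean was 2353 ± 163.3 (SD, n = 3) in the controls and 7732 ± 1618 (SD, n = 3) in the *MxCDX2* mice, 3.29 times as high. The log2 fold change in edgeR was 1.72, with a standard error (SE) of 0.16 and an adjusted p of 0.00191 by its quasi-likelihood test. Among the 734 genes that were higher, *Cebpa* ranked 102 by p-value and 346 by fold change. In the plot of counts by mouse, it is the gene with the widest gap between the groups. Of 9 genes of monocyte fate, 7 were higher too, beside 4.59% of all genes tested, in a list chosen with earlier results known. Of 8 genes of early granulocytes and their progenitors, 3 were higher, *Ms4a3*, a marker of granulocyte-monocyte progenitors, among them. *Elane* (-0.31) and *Csf3r* (-0.35) of that list had negative log2 fold changes. The part of monocytes and of these progenitors in the *Cebpa* counts was not tested.

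**Figure D1:**
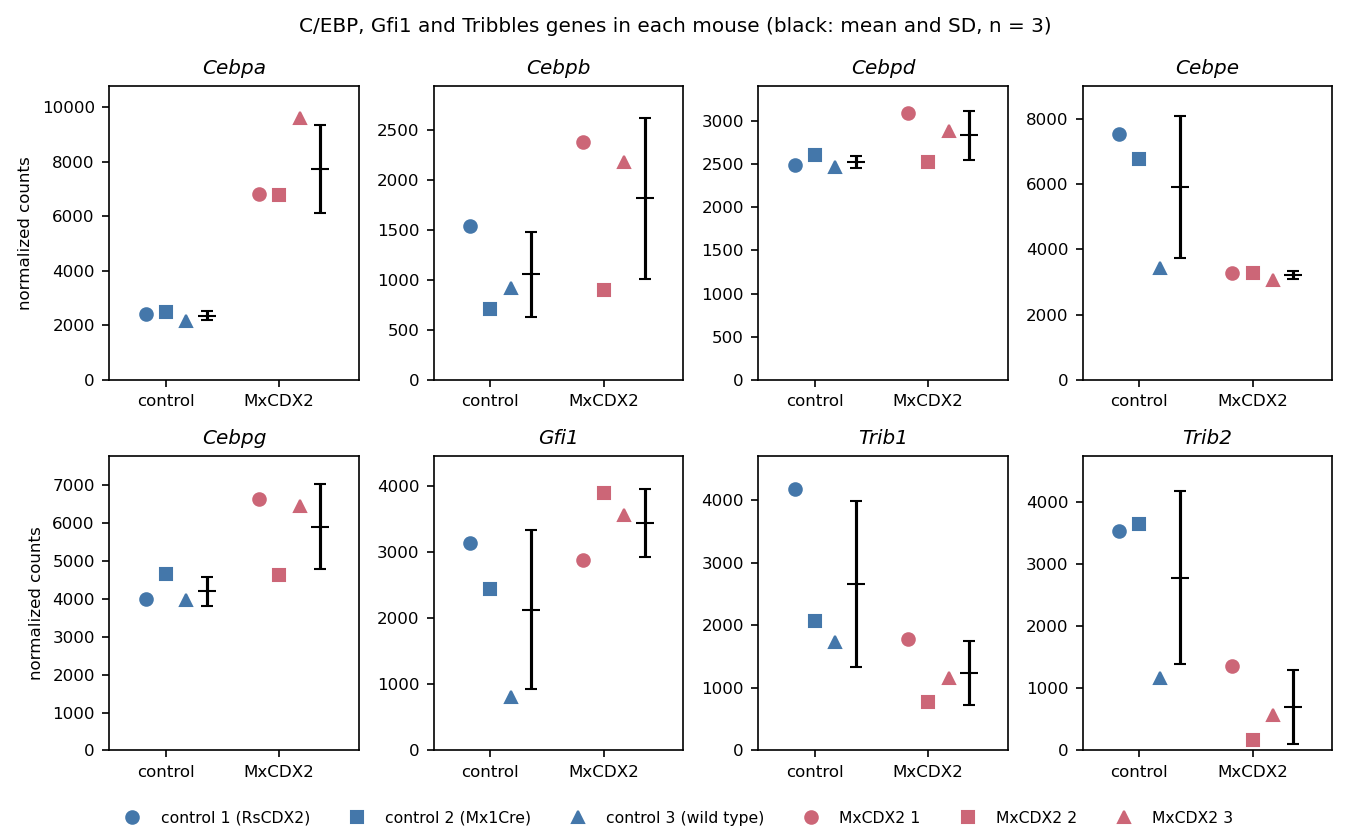
Normalized counts (vertical axis, from 0) of the 8 genes in each of the 3 control mice (blue) and 3 *MxCDX2* mice (red), 1 symbol shape per mouse number, with the mean and SD of each group (n = 3) in black. The *Cebpa* counts of the *MxCDX2* mice lie between 6775 and 9601, above every control, while *Cebpe* lies between 3075 and 3287 in the *MxCDX2* mice, just under the wild-type control.

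The *Cebpa* promoter is shown because this gene passed the thresholds. The 250 bases before its RefSeq start (GRCm38.p6, chr7:35119043-35119292, plus strand) read, with motif matches in capitals:
Cebpa: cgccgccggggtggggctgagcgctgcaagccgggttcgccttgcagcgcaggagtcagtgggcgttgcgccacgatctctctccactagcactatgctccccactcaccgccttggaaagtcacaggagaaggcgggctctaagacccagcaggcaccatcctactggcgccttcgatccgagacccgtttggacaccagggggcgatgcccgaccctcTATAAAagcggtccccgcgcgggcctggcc
The capitals mark a TATAAA box from 30 to 25 bases before the start. They also hold the only match to TTTAT, the core of CDX sites, which was on the opposite strand and lay wholly within the TATAAA. On either strand, TTTAT occurred in 37.3% and TATAAA in 12.4% of the 32851 RefSeq promoter windows of 250 bases, and each TATAAA holds a TTTAT match on the other strand. No match was found in the *Cebpa* window to TTGCNNAA (C/EBP, in 9.56% of all windows), AAATC (GFI1, 32.7%) or GAGGAA (PU.1, 23.3%). Of the 8 genes, 5 had an entry in the RefSeq table, with 6 windows in all, and *Cebpd*, *Cebpe* and *Trib1* had none. The windows of *Cebpb*, *Cebpg* and *Trib2* held none of the 5 motifs, and 1 of the 2 windows of *Gfi1* held a TTGCNNAA match from 143 to 136 bases before the start. The *Cebpa* window had 66.4% G and C, and the median over all windows was 52.4%.

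*Cebpg* (chromosome 7, 35046422 to 35056573, minus strand) is separated from *Cebpa* by 62719 bases, with no other tested gene between them. Its normalized counts were 4007, 4650.1 and 3964 in the controls and 6639.9, 4628 and 6464 in the *MxCDX2* mice. Mice 1 and 3 of the *MxCDX2* group were above all controls, and mouse 2 fell within their range. Its log2 fold change was 0.49 (SE 0.16, edgeR adjusted p = 0.0730), short of both thresholds. *Pepd*, the next tested gene beyond *Cebpg* and the gene of a peptidase that cleaves dipeptides ending in proline, was called higher, with a log2 fold change of 1.28 (SE 0.15, edgeR adjusted p = 0.00293). Within 100000 bases of the pair, 4 genes were tested in all, the pair included, and *Cebpa* and *Pepd* were the 2 that passed, beside 13.6% of all genes tested. *Lrp3*, the remaining gene, had at most 28.1 normalized counts and a log2 fold change of -1.24 (SE 0.55, edgeR adjusted p = 0.156). These neighbors were chosen after their values were seen.

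*Cebpe* lies on chromosome 14 from 54710360 to 54712174 on the minus strand, in 2 exons. It had 7539, 6763 and 3432 normalized counts in controls 1, 2 and 3 and 3284, 3287 and 3075 in the *MxCDX2* mice. The *RsCDX2* and *Mx1Cre* controls were high, whereas the wild-type control was lower and only just above the *MxCDX2* mice. With all 6 mice the log2 fold change was -0.88 (SE 0.28, edgeR adjusted p = 0.0652), and *Cebpe* did not pass. DESeq2 on all 6 mice gave -0.89 (SE 0.31, DESeq2 adjusted p = 0.0181), which fell short of the fold threshold alone. Without the wild-type mouse it was -1.13 (SE 0.09, edgeR adjusted p = 0.00216), past both thresholds, in a fit that called 14.9% of all genes. The call for *Cebpe* thus rested on 1 control mouse, the one with high counts of megakaryocyte genes. That mouse also had the lowest *Mpo* and *Elane* counts of the 6 mice (14673 and 5981). The part of megakaryocytes and of early granulocytes in its *Cebpe* count was not tested. The *MxCDX2* mice were closer to each other (SD 121.7) than the controls (SD 2182).

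*Cebpb* lies on chromosome 2 from 167688915 to 167690418, and its single exon shares 312 bases with *Tmem189* on the other strand. Its normalized counts were 1537, 712 and 916.2 in the controls and 2378, 895.4 and 2181 in the *MxCDX2* mice. *MxCDX2* mouse 2 was among the low controls, so the groups overlapped, and the log2 fold change of 0.79 (SE 0.43, edgeR adjusted p = 0.238) did not pass. *Cebpb* was higher in the *MxCDX2* mouse than in the control of the same number in 3 of 3 pairs. A block by replicate number treats mice of the same number as pairs, which the labels do not state. With it, the log2 fold change was 0.74 (SE 0.21, edgeR adjusted p = 0.0657), which did not pass either. *Cebpd*, on chromosome 16 from 15887286 to 15891031, had the fold change nearest to 0 of the 8 genes. It had 2494, 2607 and 2469 counts in the controls and 3090.1, 2529 and 2885 in the *MxCDX2* mice, with a log2 fold change of 0.17 (SE 0.11, edgeR adjusted p = 0.314). Its exon shares 562 bases with *Spidr* on the opposite strand. The libraries were stranded, but the strand setting of the counting is not given in the sources used here.

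Levels of different genes were compared as TPM (transcripts scaled to the same total in each mouse), which divides counts by exon length. In the controls, *Cebpe* was the most abundant of the 8 genes, at 252.7 ± 85.3 TPM (SD, n = 3), and it was above *Cebpa*, at 47.8 ± 3.14 TPM, in 3 of 3 mice. *Cebpa* was in turn above *Cebpg* (40.2 ± 4.84 TPM) in 3 of 3 mice. The genes below them were *Cebpb* (37.1 TPM), *Cebpd* (36.1), *Gfi1* (35.2), *Trib2* (34.1) and *Trib1* (22.4), and from *Cebpg* downward every neighbor in this order overlapped the next. In the *MxCDX2* mice *Cebpa* had the highest mean, 208.7 ± 46.8 TPM, and *Cebpe* followed at 184.0 ± 10.6 TPM, but *Cebpa* was above *Cebpe* in 1 of 3 mice, so their order was not settled. Both were above *Cebpb* (84.8 ± 35.3 TPM) in all 3. *Cebpb*, *Gfi1* (77.0 TPM) and *Cebpg* (74.3 TPM) overlapped, *Cebpd* (53.6 ± 3.10 TPM) was below *Cebpg* in 3 of 3 mice, and *Trib1* (13.9 TPM) and *Trib2* (11.2 TPM) were last and overlapped each other. TPM also depends on the share of reads taken by other genes, hemoglobin genes among them, so the 2 groups are compared below by ratios within a mouse.

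As shares of the summed TPM of the 5 C/EBP genes, *Cebpa* made up 9.78%, 11.2% and 14.8% in controls 1, 2 and 3 and 29.3%, 35.1% and 38.4% in the *MxCDX2* mice. *Cebpe* made up 64.7%, 65.0% and 49.7% in the controls and 30.0%, 36.2% and 26.1% in the *MxCDX2* mice. The groups did not overlap for either gene, and these shares do not depend on library scaling. The share of *Cebpd* lay between 7.09% and 11.9% in the controls and between 8.12% and 9.35% in the *MxCDX2* mice, that of *Cebpg* between 7.59% and 12.7% and between 11.3% and 13.4%, and that of *Cebpb* between 5.65% and 10.96% and between 8.14% and 17.9%. For these 3 genes the groups overlapped.

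**Figure D2:**
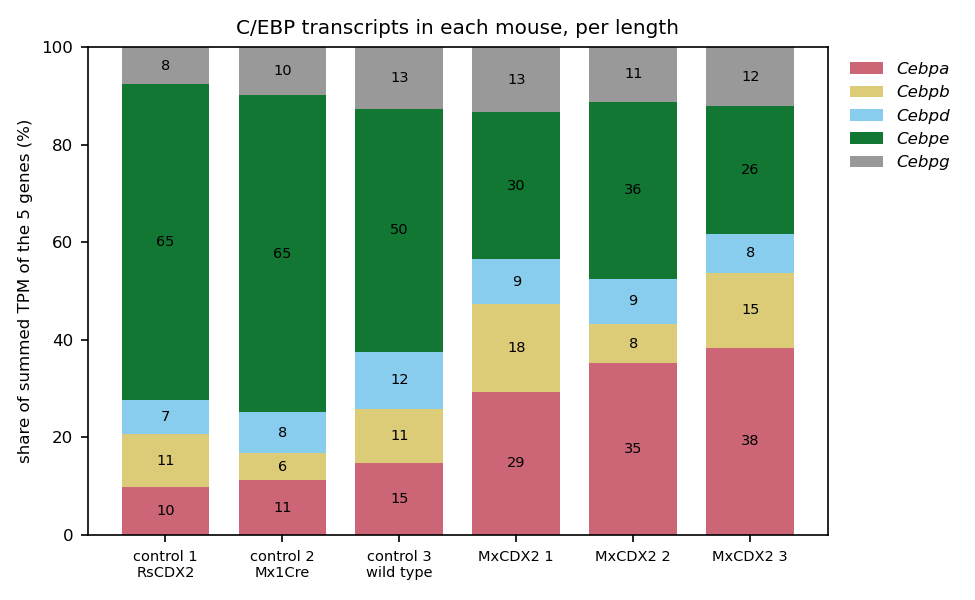
Share of each C/EBP gene in the summed TPM of the 5 genes (vertical axis, percent), 1 bar per mouse. *Cebpe* takes between 49.7% and 65.0% in the control mice and between 26.1% and 36.2% in the *MxCDX2* mice, and *Cebpa* at most 14.8% in the control mice and at least 29.3% in the *MxCDX2* mice.

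The same contrast was tested as a difference of log2 reads per kilobase between both genes of a mouse. *Cebpe* minus *Cebpa* was 2.73, 2.54 and 1.75 in the controls and 0.03, 0.04 and -0.56 in the *MxCDX2* mice. *Cebpe* thus exceeded *Cebpa* in every control, was level with it in *MxCDX2* mice 1 and 2 and was below it in mouse 3. The group difference was -2.50 on the log2 scale (exact two-sided permutation test, p = 0.10, adjusted p = 0.16 over 8 ratios). With 3 mice against 3 this test cannot give a p below 0.10, so no ratio could pass. Of the 8 ratios, 5 did not overlap between groups, namely those of *Cebpe*, *Cebpd*, *Cebpg*, *Trib1* and *Trib2* to *Cebpa*, and all 5 were lower in *MxCDX2* mice. The ratios share the *Cebpa* count and are not independent of its rise.

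*Gfi1* lies on chromosome 5 from 107716657 to 107726036 on the minus strand, and its exons share 101 bases with A430072P03Rik on the other strand. It had 3135, 2444 and 802.3 normalized counts in controls 1, 2 and 3 and 2875, 3884 and 3554 in the *MxCDX2* mice. The wild-type control was far below the other 5 mice, and the *RsCDX2* control was above *MxCDX2* mouse 1. With all mice the log2 fold change was 0.69 (SE 0.45, edgeR adjusted p = 0.319), and without the wild-type mouse it was 0.32 (SE 0.17, edgeR adjusted p = 0.229). *Gfi1* did not pass in either fit. The ratio of *Gfi1* to *Irf8*, a factor of monocytes that *Gfi1* opposes, was -0.33, -1.24 and -3.32 on the log2 scale in the controls and -1.83, -2.11 and -1.85 in the *MxCDX2* mice. Controls 1 and 2 were above all *MxCDX2* mice and the wild type was below them, with a group difference of -0.30 (exact two-sided permutation test, p = 0.70, adjusted p = 0.70). Without the wild type the difference was -1.15 (exact two-sided permutation test, p = 0.20, the smallest that 2 mice against 3 allow).

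The gene whose profile over the 6 mice was closest to that of *Gfi1* was *Prtn3*, which encodes proteinase 3, a protease of primary granules. Its log2 normalized counts, taken as differences from the control mean, differed from those of *Gfi1* by a root mean square of 0.21. *Rab44* (0.21) and *Alas1* (0.23) followed. *Prtn3* had 30002, 23555 and 7077 counts in controls 1, 2 and 3 and 36419, 31122 and 36496 in the *MxCDX2* mice, so it too was lowest in the wild type. *Mpo* and *Elane*, the genes of myeloperoxidase and neutrophil elastase, had 14673 and 5981 counts in the wild type, and at least 57529 and 19589 in every other mouse. The low *Gfi1* count of the wild-type control thus came with low counts of primary granule genes in that mouse.

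**Figure D3:**
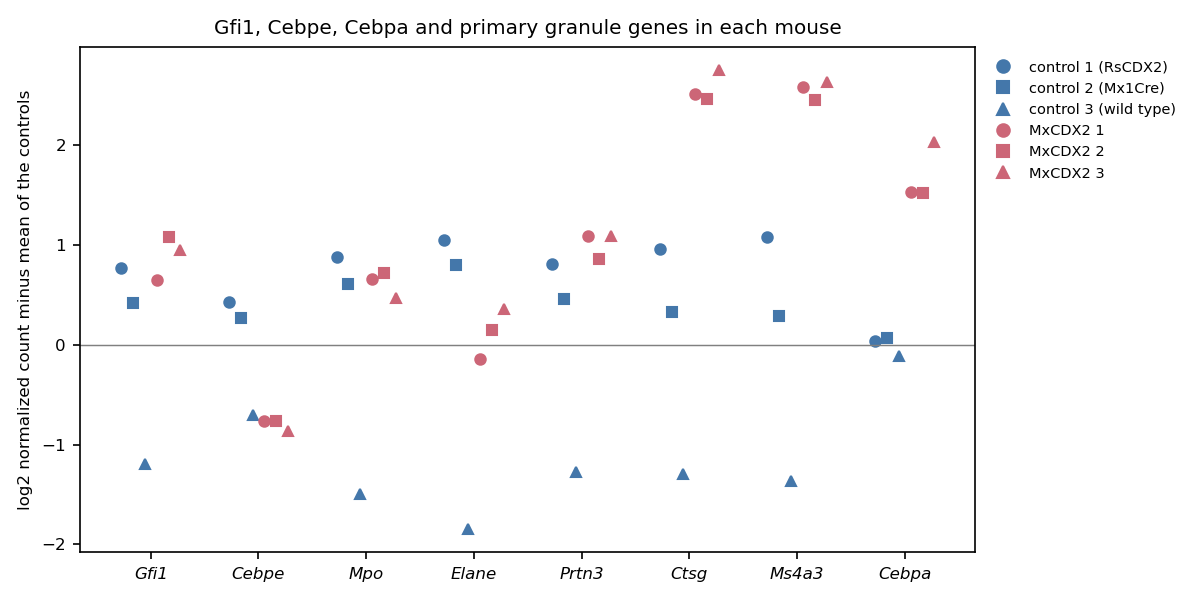
Log2 normalized counts of *Gfi1*, *Cebpe*, 5 primary granule or early granulocyte genes and *Cebpa* in each mouse, as the difference from the mean of the 3 controls (vertical axis). The wild-type control (blue triangle) is the lowest of the 6 mice in *Gfi1*, *Mpo*, *Elane*, *Prtn3*, *Ctsg* and *Ms4a3*, whereas its *Cebpa* count is near those of the other controls.

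*Trib1* lies on chromosome 15 from 59648350 to 59657099. It had 4182, 2076 and 1739 normalized counts in the controls and 1783, 775.9 and 1159 in the *MxCDX2* mice. The *RsCDX2* control was the highest, and the groups overlapped where *MxCDX2* mouse 1 was above the wild type. The log2 fold change was -1.10 (SE 0.42, edgeR adjusted p = 0.109), which did not pass. With the replicate block it was -1.08 (SE 0.19, edgeR adjusted p = 0.0218) and passed, in a fit that called 13.8% of all genes. With DESeq2, which called 16.8% of all genes, it was -1.11 (SE 0.43, DESeq2 adjusted p = 0.0340) and passed too. *Trib1* was lower in the *MxCDX2* mouse than in the control of the same number in 3 of 3 pairs.

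*Trib2* lies on chromosome 12 from 15791727 to 15816922 on the minus strand. It had 3538, 3642 and 1174 normalized counts in controls 1, 2 and 3 and 1355, 175.4 and 571.1 in the *MxCDX2* mice. *MxCDX2* mouse 1 was above the wild-type control, and mouse 2 had by far the fewest counts. The log2 fold change of -1.99 was the largest of the 8 genes in size, but so was its standard error of 0.76, and *Trib2* did not pass (adjusted p = 0.108). It passed with DESeq2 at -2.00 (SE 0.67, DESeq2 adjusted p = 0.0124). The replicate block gave -2.16 (SE 0.73, edgeR adjusted p = 0.101). Leaving out the wild type gave -2.35 (SE 0.74, edgeR adjusted p = 0.0657).

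The gene closest to *Trib2* in profile was *Cd79a*, a subunit of the B-cell receptor, with 8847, 11168 and 4514 normalized counts in the controls and 3372, 749.4 and 1976 in the *MxCDX2* mice (root mean square difference 0.30), followed by *Map3k13* (0.30) and *Reln* (0.36). The summed counts of the 8 B-cell genes had no overlap between the groups and were lowest in *MxCDX2* mouse 2, as were those of the 8 erythroid genes. Their part in the *Trib2* counts was not tested. For *Trib1* the closest genes were *Stat4* (0.17), *Rnf125* (0.20) and *Picalm* (0.22). For *Cebpa* they were *Plekha3* (0.09), *Pdcd4* (0.14) and *Osbp* (0.16), and for *Cebpe* they were *Chst13* (0.08), *Igf1r* (0.12) and 1810055G02Rik (0.12). The likeness covered 6 mice in 2 groups and 13618 protein-coding genes, and says nothing of function.

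**Figure D4:**
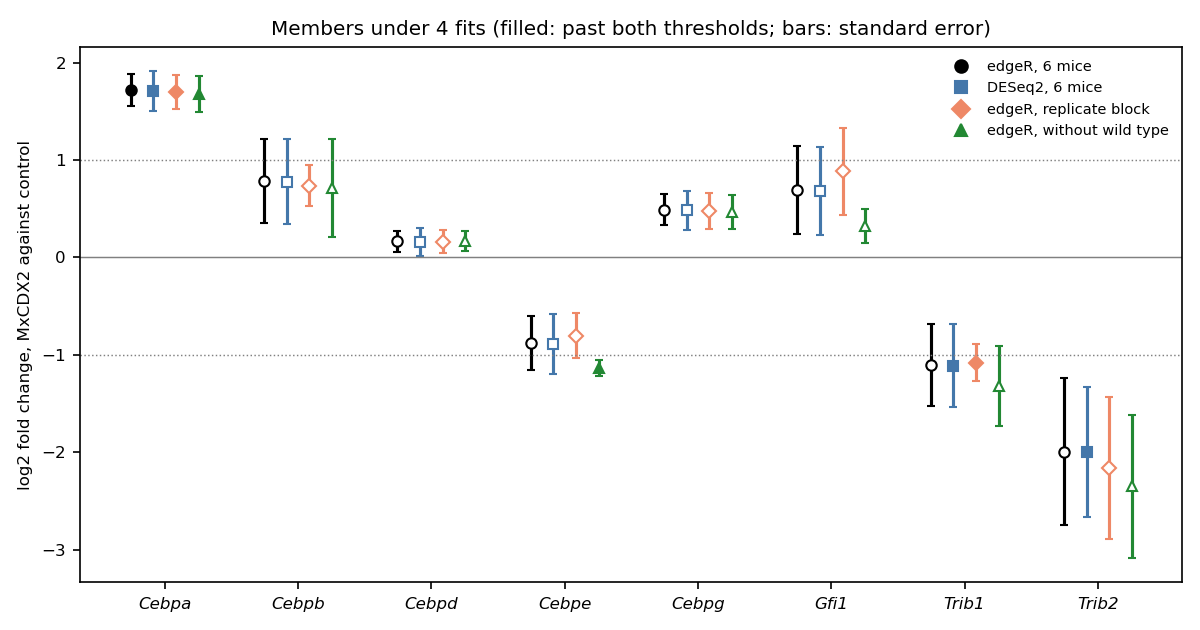
Log2 fold change of each of the 8 genes between *MxCDX2* and control mice (vertical axis) in 4 fits, with the standard error as bars and symbols filled where both thresholds were passed. *Cebpa* is filled in all 4 fits, *Trib1* with DESeq2 and the replicate block, *Trib2* with DESeq2 and *Cebpe* without the wild-type mouse.

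COP1, the ligase through which TRIB1 and TRIB2 act, works in complexes with DET1, DDA1, DDB1, a cullin and RBX1. Of 7 genes of this ligase, 0 passed both thresholds with edgeR and 0 with DESeq2, beside 13.6% and 16.8% of all genes tested. In edgeR, 2 of the 7 had an unadjusted p-value below 0.05. *Cul4a* had 9325, 8902 and 7209 normalized counts in the controls and 4803, 4309 and 4216 in the *MxCDX2* mice (log2 fold change -0.93, SE 0.13, adjusted p = 0.00466). Its paralog *Cul4b* had between 1899 and 2050 in the controls and between 2505 and 2715 in the *MxCDX2* mice (log2 fold change 0.38, SE 0.09, adjusted p = 0.0319). The 2 cullins thus had fold changes of opposite sign, both under the fold threshold. Without the wild-type mouse *Cul4a* was at -1.02 and passed. *Cop1* had a log2 fold change of -0.25 (adjusted p = 0.261). Among relatives of the 8 genes, *Gfi1b*, the erythroid and megakaryocytic counterpart of *Gfi1*, fell. It had 2939, 2966 and 4255 counts in the controls and 637.7, 236.1 and 286.4 in the *MxCDX2* mice (log2 fold change -3.13, SE 0.41, adjusted p = 0.00412), beside the lower erythroid genes, whose part in it was not tested. *Trib3*, *Stk40*, *Ddit3* and *Cebpz* did not pass, with log2 fold changes between -0.42 and 0.04.

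Among 10 genes of GFI1 cofactors, 1 passed, beside 13.6% of all genes tested. It was *Rcor2*, a CoREST gene, with a log2 fold change of -2.30 (SE 0.56, edgeR adjusted p = 0.0293) and its highest count, 735.7, in the wild type. Without that mouse it was at -1.41 and passed. It did not pass once any 1 *MxCDX2* mouse was left out. *Kdm1a*, which encodes LSD1, had a log2 fold change of 0.08 (SE 0.09). *Ehmt2*, which encodes a histone methyltransferase, had 5132, 6487 and 6247 counts in the controls and 9228, 8895 and 8890 in the *MxCDX2* mice (log2 fold change 0.60, adjusted p = 0.0143), under the fold threshold. Of 8 genes that GFI1 is known to repress, 2 rose and 1 fell, beside 4.59% and 9.03% of all genes tested. *Csf1r*, the receptor of macrophage colony-stimulating factor, rose with a log2 fold change of 2.08 (SE 0.20, edgeR adjusted p = 0.00196), and *Irf8* with 1.17 (SE 0.30, edgeR adjusted p = 0.0354). Both genes are also in the list of monocyte fate genes below, so both lists rest partly on the same counts. The homeobox gene *Meis1* (-2.32) fell, with its highest count in the wild type, and without that mouse it was at -1.18 and passed. *Csf1r* passed in each of 16 alternatives and *Irf8* in 10, and *Meis1* did not pass with the replicate block (-1.91, adjusted p = 0.0523). Without *MxCDX2* mouse 2 or mouse 3, *Csf1r* alone of the 8 genes passed. The 8 genes had no common direction, with a median log2 fold change of -0.41.

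Genes of early granulocytes and their progenitors, several of them known to be regulated by C/EBPα, split. Of 8, 3 rose, beside 4.59% of all genes tested that rose, with a median log2 fold change of 0.55. *Ctsg*, which encodes cathepsin G, had 17332, 11194 and 3612 normalized counts in the controls and 50936, 49158 and 60062 in the *MxCDX2* mice (log2 fold change 2.32, SE 0.52, adjusted p = 0.0237). *Ms4a3*, a marker of granulocyte-monocyte progenitors, had a log2 fold change of 2.25 (SE 0.55, edgeR adjusted p = 0.0304), and *Il6ra*, the interleukin 6 receptor, of 1.63 (SE 0.20, edgeR adjusted p = 0.00343). *Mpo* (0.31), *Prtn3* (0.78), *Lyz2* (0.23), *Elane* (-0.31) and *Csf3r* (-0.35) did not pass. The values of several of them turned on the wild type, and without it *Mpo* was at -0.11, *Prtn3* at 0.39, *Lyz2* at 0.09 and *Elane* at -0.77, none of which passed. *Ctsg*, *Ms4a3* and *Il6ra* were above every control in all 3 *MxCDX2* mice. Without control 2 or any 1 *MxCDX2* mouse, *Il6ra* alone passed.

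Genes of late granules and other genes of maturing neutrophils, *S100a8*, *S100a9*, *Ly6g* and *Itgb2l* among them, were lower. Many of the listed genes depend on C/EBPε. Of 12, 9 fell, with a median log2 fold change of -1.54, beside 9.03% of all genes tested that fell. As the list was chosen with earlier results of these data known, the share does not test it. *Ltf*, the gene of lactoferrin in secondary granules, had 381459, 383211 and 238335 normalized counts in the controls and 95434, 107705 and 82011 in the *MxCDX2* mice (log2 fold change -1.81, SE 0.29, adjusted p = 0.00749). It passed in each fit that left out 1 mouse except the one without *MxCDX2* mouse 3, and in that fit 4 of the 12 passed. *Chil3* fell most, with a log2 fold change of -2.79 (SE 0.47, edgeR adjusted p = 0.00920). *Camp* (-1.19) and *Ngp* (-1.06) did not pass although their groups did not overlap, and both passed without the wild type (-1.42 and -1.28), while *Cd177* (-0.13) overlapped. *Mmp8*, *Mmp9*, *Cd177* and *Ly6g* are also in the list of mature neutrophil genes, so both lists rest partly on the same counts. The summed counts of the mature neutrophil genes were lower in all *MxCDX2* mice, and the part of these cells was not tested.

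Genes of monocyte fate were higher. Of 9, 7 rose, beside 4.59% of all genes tested that rose, with a median log2 fold change of 2.05. The list was chosen with earlier results of these data known, so the share does not test it. *Csf1r* and *Irf8* are among these 7 and were also counted above among the genes that GFI1 represses. *F13a1*, which encodes a coagulation factor subunit made by monocytes, had a log2 fold change of 3.06 (SE 0.38, edgeR adjusted p = 0.00345), followed by *Ccr2*, a chemokine receptor, at 2.75. The exceptions were *Spi1*, the gene of PU.1 (0.14, SE 0.15), and *Cx3cr1* (0.10), which did not pass. Of 9 genes of the amino acid stress response of ATF4, a partner of C/EBPγ, 2 fell, beside 9.03% of all genes tested. They were *Asns* (-1.32, SE 0.11, adjusted p = 0.00161) and *Chac1* (-1.49, adjusted p = 0.0164). With the replicate block 3 fell, the other being *Slc7a11*, a cystine transporter, at -2.37 (edgeR adjusted p = 0.0333). *Chac1* did not pass without control 1, control 2, *MxCDX2* mouse 2 or *MxCDX2* mouse 3. *Psat1*, an enzyme of serine synthesis, had a log2 fold change of 0.81 (SE 0.10, edgeR adjusted p = 0.00358), under the fold threshold, and *Atf4* had a log2 fold change of -0.33 (adjusted p = 0.243).

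**Figure D5:**
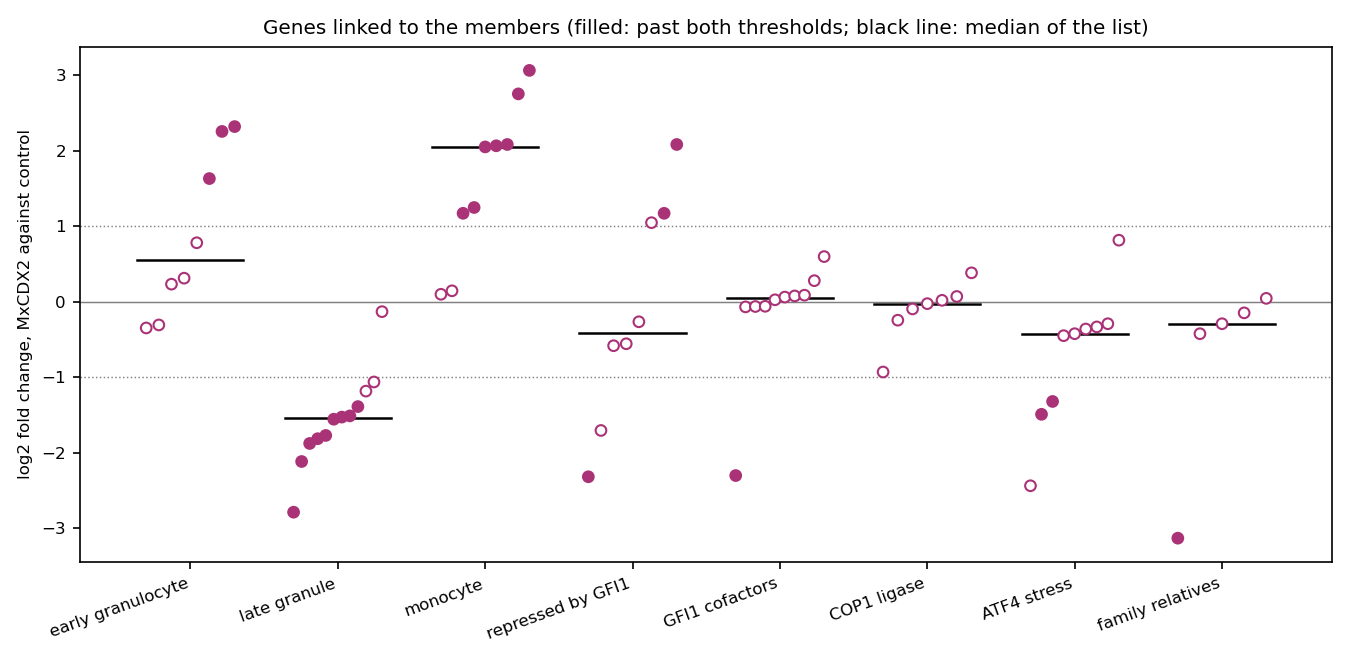
Log2 fold change between *MxCDX2* and control mice (vertical axis) of each gene in 8 lists linked to the C/EBP, *Gfi1* and Tribbles genes, with genes past both thresholds filled and the median of each list as a black line. Genes of the late granule list, which holds other neutrophil genes too, lie below 0 with a median of -1.54. Monocyte genes lie above 0 with a median of 2.05, while the medians of the COP1 ligase genes and the GFI1 cofactors lie near 0.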

How the data were processed

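Bone marrow mRNA of 6 mice was sequenced as stranded TruSeq libraries. The authors aligned the reads with STAR 2.5 to GRCm38 and used HTSeq 0.6.1 for counting, and they deposited raw counts, without normalization, one file per mouse. Members and gene lists were chosen with earlier results of these data known. Symbols, positions and exon lengths came from GENCODE M21 (37607 of 39179 identifiers found). For normalized counts, each library was rescaled to the mean effective library size by TMM.

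Counts were tested in R 4.3.3 with edgeR 4.0.16 (TMM, default filterByExpr, glmQLFit, glmQLFTest), with Benjamini-Hochberg adjustment over 15980 genes. Genes called had an adjusted p-value below 0.05 and an absolute log2 fold change above 1, after the study's methods. Standard errors were derived from the F statistic. DESeq2 1.42.0 was an alternative, as were other scalings and filters, a replicate block and each mouse left out. The edgeR and DESeq2 fits were tested on simulated counts. Replicate numbers came from the labels, which do not say that they mark a shared litter or day. Deviations from the group mean correlated across genes at 0.17, 0.29 and 0.18 between control and *MxCDX2* mice of the same number. Between mice of other numbers they correlated between -0.33 and 0.10. The main fit and the tests of ratios did not pair the mice, and only the replicate block, an alternative, used the numbers as pairs. The check used the same counts as the block fits, so it cannot show whether the mice were paired. HTSeq found no feature for between 9.22% and 14.1% of the reads it assigned to any class, and these were left out. Within each group, no pair of mice was a duplicate. Ratios were tested by exact permutation and likeness used a pseudocount of 1 (Python 3.11.15, pandas 2.3.3, numpy 2.4.6, scipy 1.17.1, matplotlib 3.10.9). The named genes were the 8 members, genes of the lists, genes near *Cebpa* (chosen after their values were seen) and, for *Cebpa*, *Cebpe*, *Gfi1*, *Trib1* and *Trib2*, the 3 protein-coding genes nearest in profile. Between 38646101 and 49899650 reads were counted per mouse. Some items, a sequence and genes of the lists among them, are not reported here.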

Additional observations from a re-analysis of the deposited data

How the results depend on the processing

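All 8 genes kept the sign of their log2 fold change in each of 16 alternatives. *Cebpa* was called in all 16 by the thresholds of each, with log2 fold changes between 1.54 and 1.84. The test against a minimum fold change and the adjusted p-value alone kept the fold changes of the main fit, so no sign could change there. With the adjusted p-value alone, a gene called in the main fit could not fail. DESeq2 called 3 of the 8 genes, with *Trib1* at -1.11 and *Trib2* at -2.00. The replicate block called 2, with *Trib1* at -1.08, and changed no other call among the 8. Leaving out 1 mouse gave between 1 and 2 called genes, and the 2 came without the wild-type control, where *Cebpe* was at -1.13. Log2 fold changes ranged in these fits from -1.13 to -0.65 for *Cebpe*, from -1.46 to -0.61 for *Trib1*, from -2.90 to -1.53 for *Trib2* and from 0.32 to 1.10 for *Gfi1*. Over all genes, testing against a minimum log2 fold change of 1 called 611 and the adjusted p-value alone 3471, and leaving out 1 mouse called between 1205 and 2406, the fewest without *MxCDX2* mouse 3. Of the 122 list genes, 46 were called, 14 when tested against that minimum and between 23 and 54 with 1 mouse left out, the fewest without *MxCDX2* mouse 3. Scaling by total counts moved the median of all genes to 0.12, with 903 higher and 1273 lower calls, and scaling by 8 leukocyte genes moved it to 0.06. The difference of *Gfi1* minus *Irf8* ran from -1.15 to 0.35 when 1 mouse was left out, and it reversed without control 1. The lowest raw count of the 8 genes was 179, for *Trib2* in *MxCDX2* mouse 2.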

Other observations

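C/EBPε is also required for eosinophils. The 7 eosinophil genes summed to 180356, 128806 and 35558 normalized counts in controls 1, 2 and 3 and to 136044, 11218 and 41584 in the *MxCDX2* mice, so the groups overlapped, while *Cebpe* lay between 3075 and 3287 in the same *MxCDX2* mice. *Prg2*, the gene of major basic protein, had 92627 counts in *MxCDX2* mouse 1 and 6609 in mouse 2. *Siglecf*, a lectin of eosinophils, went the other way, with between 1570 and 1688 counts in the *MxCDX2* mice and at most 1168 in the controls (log2 fold change 1.10, edgeR adjusted p = 0.0687), and did not pass. With the replicate block it was at 1.23 (edgeR adjusted p = 0.0473) and passed, as it did in 5 of 16 alternatives in all.

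Of 6 genes of basophils and mast cells, 4 fell with edgeR, beside 9.03% of all genes tested. The sums of the 6 genes lay between 13861 and 17664 in the controls and between 3649 and 7674 in the *MxCDX2* mice. *Prss34*, a basophil protease, had a log2 fold change of -1.98 (SE 0.34, edgeR adjusted p = 0.0100). With the replicate block 3 passed, and *Fcer1a*, a chain of the IgE receptor, did not (-1.67, edgeR adjusted p = 0.0530). Between 2 and 3 of the 6 passed when 1 mouse was left out, and 2 without control 1, control 2, *MxCDX2* mouse 1 or *MxCDX2* mouse 2. The 7 T-cell genes summed to between 3871 and 8780 in the controls and to between 1732 and 3417 in the *MxCDX2* mice, and the 6 stroma genes to between 17311 and 59492 and between 10632 and 19076. Of the 7 T-cell genes, 1 fell, beside 9.03% of all genes tested. It was *Cd4*, with 1701, 1093 and 4068 counts in the controls and 351.7, 272.3 and 472.7 in the *MxCDX2* mice. In the other T-cell genes except *Cd3d*, the groups overlapped.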
